A study of Mus musculus with 12 samples.

Results

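The levels of 9 myelin and mature oligodendrocyte genes, Mbp, Mobp, Mag, Mog, Mal, Cnp, Tspan2, Ermn and Ugt8a, were measured in 4 preparations of mouse cortex. The genes were chosen by symbol, as known genes of myelin, and not by a threshold on a measured value. All 9 had a row among the 29879 genes counted, and all 9 were among the 13404 genes that passed the filter on low counts. The mice were SNAP25 BacTRAP animals of postnatal day 21, and their cortex gave 4 groups of 3 RNA sequencing libraries. In such a line the neuronal gene Snap25 drives a ribosomal protein that carries a green fluorescent tag, and tagged ribosomes are pulled down through the tag with antibodies (translating ribosome affinity purification, TRAP). SynapTRAP libraries hold the pull-down from the band of synaptic particles in sucrose and percoll gradients, TRAP libraries the pull-down from whole cortex, SNF libraries that band before pull-down, and WCH libraries cortex RNA, which the labels call the control. All 4 groups thus carry the same transgene and differ in preparation. The labels do not say whether animals were pooled or whether replicates were separate animals, so p-values measure only the spread between libraries.

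Oligodendrocytes wrap axons in myelin, a stack of compacted membrane built at the end of long processes, far from the cell body. Myelin basic protein, which glues the cytosolic faces of that membrane together, is made where it is used: its mRNA is carried along the processes in granules and translated at the myelin sheath. The mRNA of myelin-associated oligodendrocyte basic protein (Mobp), another small basic protein of compact myelin, is known to be carried there too. Proteins inserted in membranes are instead made on ribosomes of the endoplasmic reticulum and travel as proteins. Myelin is also a known companion of synaptic membranes in density gradients of brain tissue.

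The 9 genes fall into 3 kinds by these roles. Mbp and Mobp are the members with transported mRNAs. Cnp (2',3'-cyclic nucleotide phosphodiesterase of non-compact myelin) and Ermn (ermin, an actin-binding protein of late oligodendrocytes) encode cytosolic proteins without that transport record. The other 5 encode membrane proteins. These are Mag, an adhesion protein of the membrane next to the axon, Mog, an immunoglobulin-like protein of the outermost lamella, Mal, a sorting protein of lipid-rich membranes, Tspan2, a tetraspanin, and Ugt8a, the enzyme that makes the myelin lipid galactosylceramide.

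Transported myelin mRNAs are known for a short element bound by the protein hnRNP A2, whose 7-letter core CAAGGAG was searched here on the sense strand of the longest protein-coding transcript of each member outside Mbp, which was not searched. The transcripts of Mobp, Cnp and Mag held it, and these stretches are shown because Mobp belongs to the transported mRNAs and the other two do not. The core stands in capitals, with 11 bases on either side, and the letters are those of GENCODE M21 transcripts.
Mobp, base 157 of the 3286-base transcript: cagaaaatggcCAAGGAGggccccaggct
Mobp, base 1425: tatgtctgtggCAAGGAGaggtgaaggaa
Cnp, base 642 of the 2357-base transcript: tgtgcccagctCAAGGAGaagaaccaatg
Cnp, base 855: ggagatgaaccCAAGGAGaagcttgagct
Mag, base 1230 of the 2434-base transcript: cttaccatcttCAAGGAGaagcagatcct
The transcripts of Mog, Mal, Tspan2, Ermn and Ugt8a held no match. Of the 21901 genes with a protein-coding transcript, 37.4% held at least 1 match on the same strand. Among transcripts within 10% of the same length, the share was 41.6% for Mobp, 35.1% for Cnp and 34.3% for Mag. A match is only a run of letters, and no protein binding was measured.

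On GRCm38, in GENCODE M21, counted from 1, the genes lie at these places as protein-coding genes. Mbp (ENSMUSG00000041607) spans 82475146 to 82585637 on chromosome 18, Mobp (ENSMUSG00000032517) 120149707 to 120181484 on chromosome 9, and Mag (ENSMUSG00000036634) 30899176 to 30914873 on chromosome 7. Mog (ENSMUSG00000076439) spans 37010743 to 37023398 on chromosome 17, Mal (ENSMUSG00000027375) 127633226 to 127656695 on chromosome 2, and Cnp (ENSMUSG00000006782) 100574904 to 100591729 on chromosome 11. Tspan2 (ENSMUSG00000027858) spans 102734529 to 102801513 on chromosome 3, Ermn (ENSMUSG00000026830) 58045113 to 58052864 on chromosome 2, and Ugt8a (ENSMUSG00000032854) 125865271 to 125938619 on chromosome 3. The counts are per gene, so the classic and golli transcripts of Mbp, and the splice forms of Mobp, cannot be told apart. Exons of Cnp share 4.23% of their length with Dnajc7 and those of Ermn 6.52% with Galnt5, both on the opposite strand, and whether the counting used strand is not stated in the labels. For Tspan2 and Mobp the shared length was 1.85% and 1.15%, and the other 5 members shared none.

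Libraries differed in depth and in their share of mitochondrial RNA. The SNF libraries held the most gene counts but the fewest outside the mitochondrial genome. A library held 4368881 to 14335089 gene counts, of which 1819853 to 7115176 lay outside the mitochondrial genome. Mitochondrial RNA took 20.4% to 63.3% of gene counts in SynapTRAP, 0.930% to 5.42% in TRAP, 82.2% to 87.3% in SNF and 33.6% to 50.9% in WCH libraries. The row for green fluorescent protein held 51 to 133 counts in SynapTRAP, 241 to 643 in TRAP, 10 to 14 in SNF and 66 to 94 in WCH libraries. Counting error was small for most members: the 95% Wilson interval of a member's share of a library's counts reached at most 28.3% of that share to either side, for Ermn in TRAP replicate 2. Such an interval covers counting error alone, because reads were not tied to single molecules by identifiers.

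Together, the 9 members took a larger share of every SynapTRAP and SNF library than of any WCH library. Their summed share of counts outside the mitochondrial genome was 1.44%, 1.15% and 3.58% in SynapTRAP libraries, 0.433%, 0.0890% and 1.29% in TRAP, 0.744%, 0.684% and 0.701% in SNF, and 0.380%, 0.404% and 0.333% in WCH libraries. Mbp alone made 81.2%, 75.5% and 88.2% of the members' counts in SynapTRAP libraries and 70.2%, 43.8% and 89.1% in TRAP. It made 49.4%, 38.6% and 56.9% in SNF and 30.3%, 31.3% and 33.9% in WCH libraries. Wilson intervals reached at most 3.16% of the summed shares and 1.57 percentage points of the Mbp shares to either side. In every WCH library Mbp was the largest member but less than the other 8 combined, while in every SynapTRAP library it outweighed them.

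Levels are given in CPM, gene counts brought to a common library total, with library sizes scaled by the trimmed mean of M-values (TMM). Mbp had 6202, 4689.7 and 16688 CPM in SynapTRAP replicates 1 to 3, 1273, 153 and 5943 CPM in TRAP, 1926, 1459 and 2051 CPM in SNF and 451, 516 and 461 CPM in WCH. Every SynapTRAP and every SNF library lay above every WCH library, and every SynapTRAP library lay above every SNF library. The TRAP libraries spread over a 38.9-fold range, with replicate 2 below all WCH libraries and replicate 3 above all SNF libraries. TRAP replicate 2 stood apart in other genes too: it was the lowest of the 12 libraries for each of the 9 members, and the lowest TRAP library in the summed level of the neuron, astrocyte and microglia markers. Its endothelial markers summed to 37.1 CPM, against 4.21 and 4.45 CPM in the other TRAP libraries. Without it, TRAP against WCH had 5 members called lower and 1 higher, beside 7.92% and 9.61% of all genes. SynapTRAP against TRAP then had 7 members called higher, beside 19.0% of all genes.

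Mobp had 292, 230.4 and 884 CPM in SynapTRAP, 102, 37.6 and 358 CPM in TRAP, 214, 199 and 230.4 CPM in SNF and 225, 264 and 182 CPM in WCH. SNF and WCH libraries overlapped, and so did SynapTRAP and WCH. As for Mbp, SynapTRAP replicate 3 was the highest of the 12 libraries. The transported mRNAs therefore differed from each other in the band before pull-down, where Mbp stood above WCH in every library and Mobp did not.

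Of the members with cytosolic proteins, Cnp had 373, 438 and 568 CPM in SynapTRAP, 262, 72.7 and 218 CPM in TRAP, 266, 273 and 199 CPM in SNF and 229.6, 222 and 149 CPM in WCH. Every SynapTRAP library lay above all 9 others, which overlapped. Ermn had 24.1, 30.4 and 70.5 CPM in SynapTRAP, 10.5, 4.44 and 12.9 CPM in TRAP, 44.0, 33.8 and 48.9 CPM in SNF and 51.0, 56.2 and 43.7 CPM in WCH. Its TRAP libraries lay below all others, and the other 3 groups overlapped.

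Among the members with membrane proteins, Mag stood apart in the homogenate. Mag had 135, 116 and 112 CPM in SynapTRAP, 29.3, 8.52 and 19.4 CPM in TRAP, 124, 177 and 87.1 CPM in SNF and 24.3, 27.2 and 22.8 CPM in WCH. TRAP and WCH overlapped, and both lay below all SynapTRAP and SNF libraries.

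Mog, Mal, Tspan2 and Ugt8a all had their lowest levels in TRAP and higher levels in SNF than in WCH, but differed in the place of SynapTRAP. Mal had 249, 259 and 166 CPM in SynapTRAP, 53.7, 29.4 and 46.1 CPM in TRAP, 544, 612 and 282 CPM in SNF and 205, 196 and 166 CPM in WCH. Tspan2 had 187, 204 and 269 CPM in SynapTRAP, 38.3, 17.4 and 33.7 CPM in TRAP, 499.8, 559.5 and 369 CPM in SNF and 190.0, 227 and 197 CPM in WCH. For both, SNF was above every other library, TRAP was below every other library, and SynapTRAP and WCH overlapped.

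Mog had 68.3, 62.4 and 34.9 CPM in SynapTRAP, 12.2, 5.16 and 10.4 CPM in TRAP, 92.1, 147 and 62.8 CPM in SNF and 37.6, 42.7 and 35.8 CPM in WCH. Ugt8a had 109, 180.2 and 122 CPM in SynapTRAP, 32.6, 20.8 and 27.4 CPM in TRAP, 189, 316 and 271 CPM in SNF and 75.3, 96.7 and 102 CPM in WCH. For both genes the TRAP libraries were the lowest and every SNF library exceeded every WCH library. SynapTRAP overlapped with both SNF and WCH for Mog but lay between SNF and WCH for Ugt8a.

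**Figure D1:**
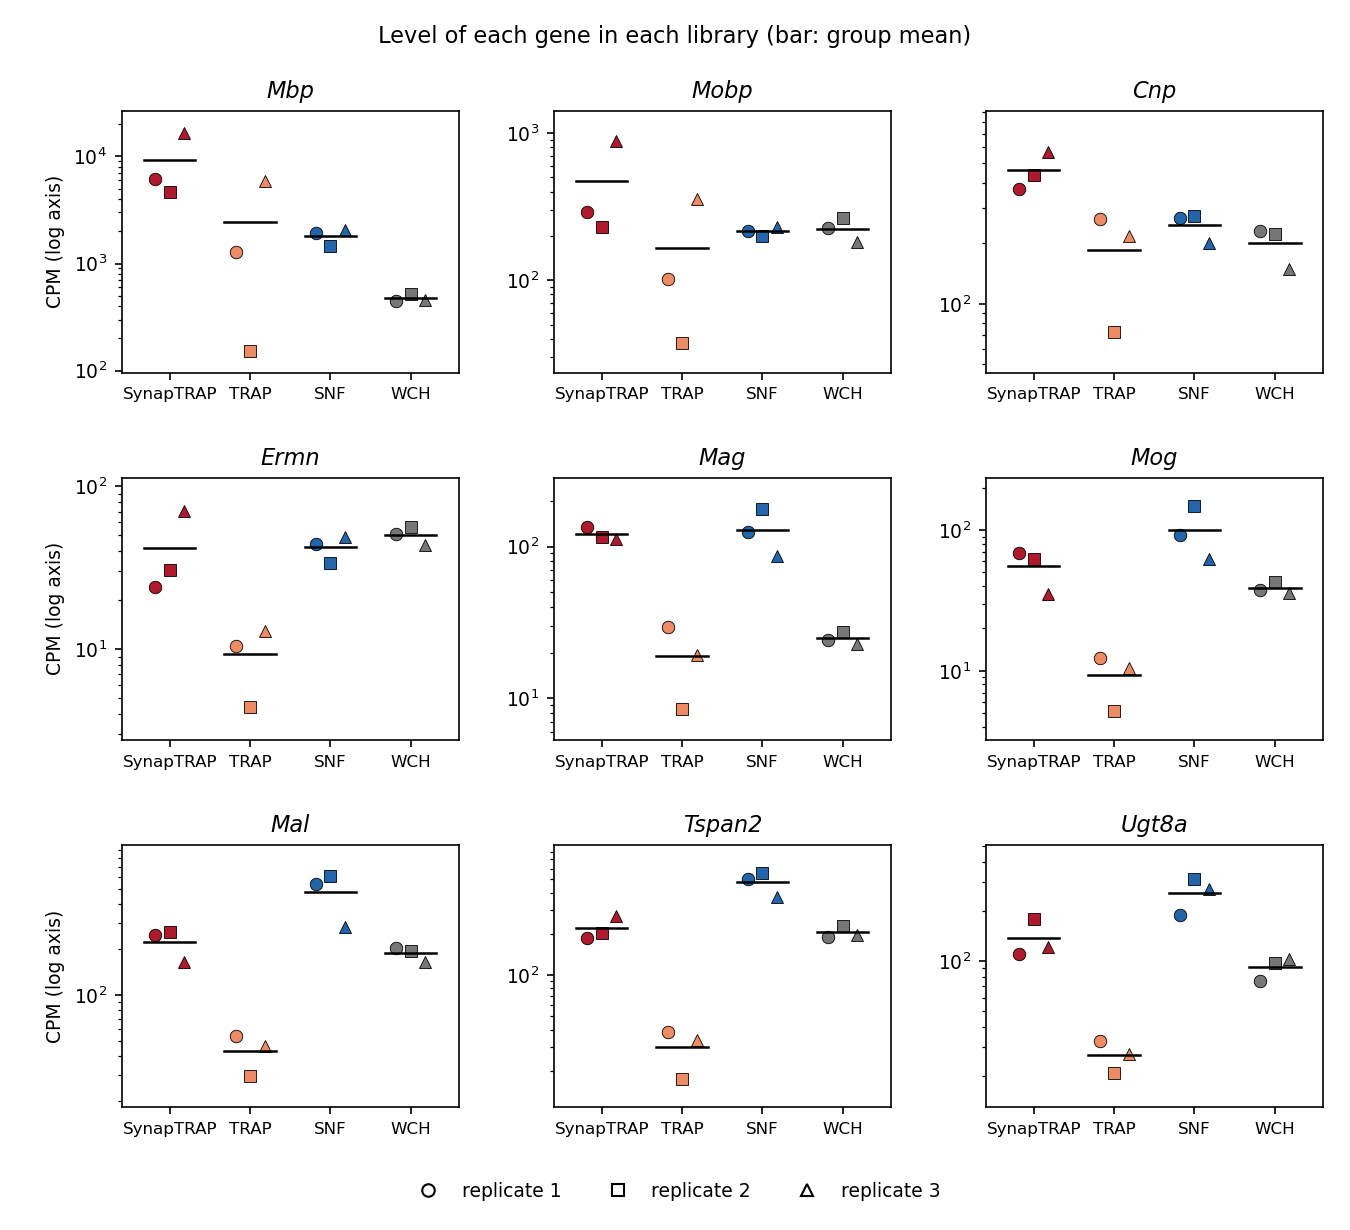
CPM of each of the 9 genes on a log axis in each library, with 1 point per library (shape: replicate number) and a bar at the mean of the 3 libraries of SynapTRAP, TRAP, SNF and WCH. Mbp spans 153 to 5943 CPM within TRAP, while Mal, Tspan2 and Ugt8a are highest in SNF and lowest in TRAP.

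The order of the members also changed with the preparation. Levels were compared between genes per kilobase (kb) of annotated exon. In WCH, Mal was at 68.0 ± 7.29 CPM per kb (SD, n = 3 in each value of this paragraph), Mbp at 56.2 ± 4.10, Cnp at 55.0 ± 12.2 and Tspan2 at 43.1 ± 4.19, and neighbours in this order overlapped between libraries. Lower lay Mobp at 32.6 ± 5.98, Mog at 22.7 ± 2.09, Ugt8a at 20.2 ± 3.16, Ermn at 13.8 ± 1.72 and Mag at 6.09 ± 0.551 CPM per kb, of which only Mog and Ugt8a overlapped as neighbours. In SynapTRAP the order began with Mbp at 1086 ± 772, Cnp at 126 ± 27.3 and Mal at 81.0 ± 18.4 CPM per kb, which did not overlap as neighbours. Mag was no longer the lowest there, at 29.7 ± 3.01 CPM per kb, close to Ugt8a at 30.2 ± 8.34 and Mog at 32.4 ± 10.4, and above Ermn at 11.5 ± 6.92. In TRAP, Mbp at 290.0 ± 363, Cnp at 50.7 ± 27.3 and Mobp at 24.3 ± 24.8 CPM per kb led, and their libraries overlapped between neighbours. In SNF the leaders were Mbp at 214 ± 36.8, Mal at 172 ± 62.6 and Tspan2 at 100.2 ± 20.5 CPM per kb, with Mobp at 31.4 ± 2.26 in the place before the last, above Ermn at 11.6 ± 2.12. The lengths are those of all annotated exons joined, so transcripts that use fewer exons have a higher true level per kb.

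The comparison of transported with other mRNAs was made within each library, as the mean log2 CPM of Mbp and Mobp minus that of the other 7 members, in which the scaling of a library cancels but for a prior count of 0.5. The difference was 3.45, 2.92 and 4.82 in SynapTRAP, 3.36, 2.36 and 5.58 in TRAP, 1.81, 1.29 and 2.22 in SNF and 1.91, 1.98 and 1.89 in WCH libraries. All 6 pull-down libraries lay above all 6 libraries without pull-down, and SNF overlapped with WCH. The margin was narrow, between 2.36 in TRAP replicate 2 and 2.22 in SNF replicate 3, and neither mRNA alone kept it. Mbp minus the other 7 was 3.37 in TRAP replicate 2 and 3.80 in SNF replicate 3. Mobp minus the other 7 was 0.75 in SynapTRAP replicate 2 and 1.50 in WCH replicate 2. The means were 3.73 ± 0.981 in SynapTRAP, 3.77 ± 1.65 in TRAP, 1.77 ± 0.469 in SNF and 1.93 ± 0.0478 in WCH (SD, n = 3 each). No p is given for this score, since its members were chosen.

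Mbp and Mobp did not contribute alike to it. Mbp exceeded the other 7 by 5.90 ± 0.946 log2 units in SynapTRAP, 5.38 ± 2.13 in TRAP, 3.30 ± 0.544 in SNF and 2.48 ± 0.0743 in WCH (SD, n = 3 each), and every SNF library lay above every WCH library. For Mobp the differences were 1.57 ± 1.02 in SynapTRAP, 2.15 ± 1.22 in TRAP, 0.24 ± 0.397 in SNF and 1.37 ± 0.142 in WCH (SD, n = 3 each). Its SNF libraries, at 0.23, −0.15 and 0.64, lay below all others, while SynapTRAP, at 1.25, 0.75 and 2.70, and WCH, at 1.41, 1.50 and 1.22, overlapped.

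Mbp relative to Mobp was higher in all SynapTRAP, TRAP and SNF libraries than in any WCH library. Mbp exceeded Mobp by 4.41, 4.35 and 4.24 log2 units in SynapTRAP, 3.63, 2.02 and 4.05 in TRAP, 3.17, 2.87 and 3.15 in SNF and 1.0, 0.97 and 1.34 in WCH. The SynapTRAP libraries, which differed 3.56-fold in Mbp and 3.84-fold in Mobp, had an SD of 0.0860 log2 units in this ratio, and all lay above the other 9 libraries. Both mRNAs therefore varied in step between the replicates of SynapTRAP.

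Cnp and Ermn were set against the 5 membrane-protein members in the same way. Their mean was −0.52, −0.35 and 0.78 log2 units from that of the membrane-protein members in SynapTRAP, 0.81, 0.40 and 1.12 in TRAP, −1.06, −1.69 and −0.81 in SNF and 0.49, 0.36 and 0.07 in WCH. The 3 SNF libraries lay below all others, and SynapTRAP and WCH overlapped. Relative to the mean of the 7, Cnp stood at 1.78 ± 0.249 in SynapTRAP, 2.68 ± 0.332 in TRAP, 0.43 ± 0.121 in SNF and 1.21 ± 0.255 log2 units in WCH (SD, n = 3 each). Mag was lowest in WCH on this scale, at −0.13 ± 0.229 in SynapTRAP, −0.57 ± 0.273 in TRAP, −0.55 ± 0.220 in SNF and −1.78 ± 0.0133 in WCH (SD, n = 3 each).

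**Figure D2:**
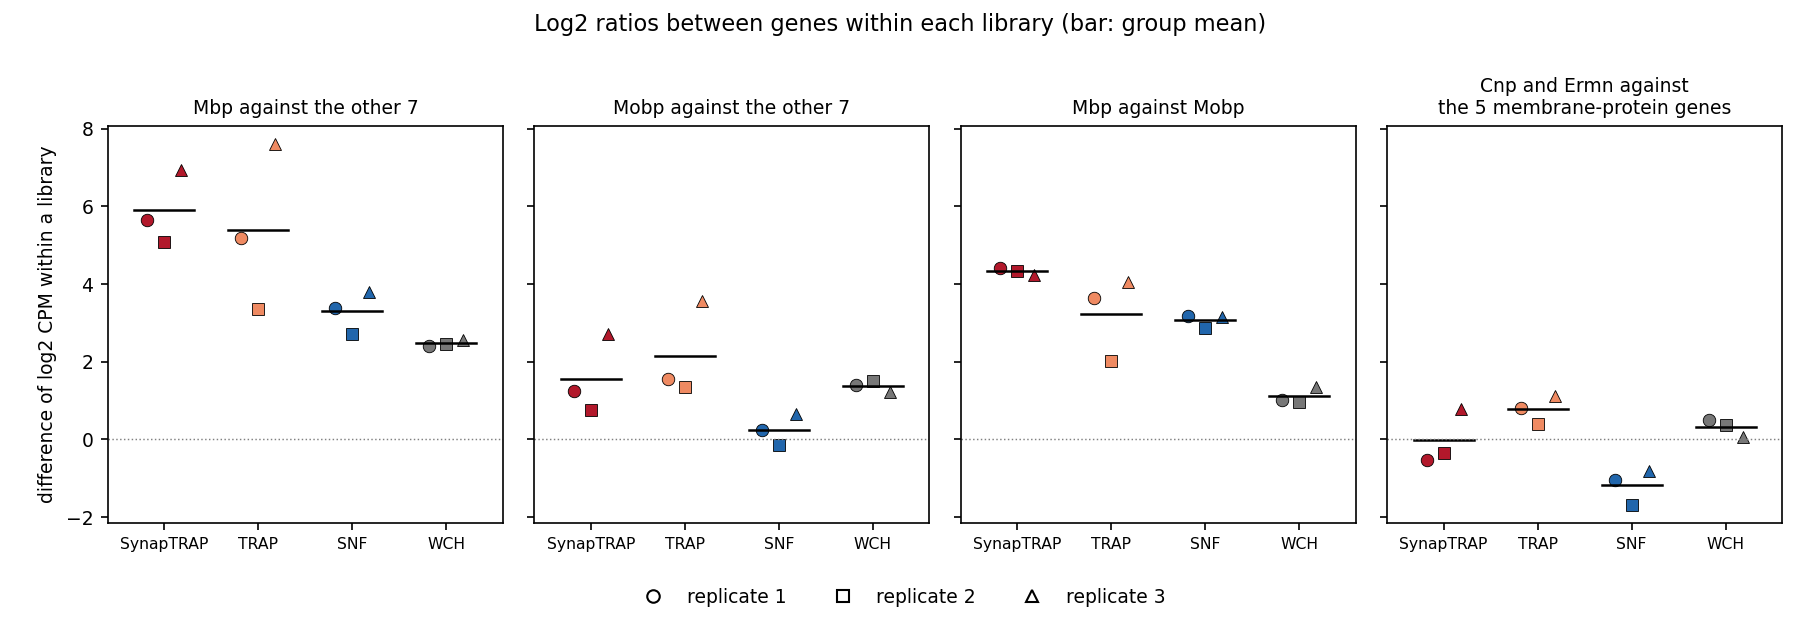
Differences of log2 CPM within each library for Mbp against the mean of the other 7 genes, Mobp against the same 7, Mbp against Mobp, and Cnp and Ermn against the 5 membrane-protein genes (points: libraries; bars: means of 3 libraries). Mbp against Mobp is 4.24 to 4.41 in SynapTRAP and 0.97 to 1.34 in WCH, and Mobp against the other 7 is lowest in SNF.

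TRAP was compared with WCH to see which mRNAs accompany tagged neuronal ribosomes pulled from whole cortex. Genes were called at an adjusted p under 0.05 (edgeR quasi-likelihood test, Benjamini-Hochberg adjustment over all 13404 genes). In TRAP, 5 of the 9 members fell and 0 rose, where 10.9% of all genes were called lower and 11.1% higher. No member was higher at an unadjusted p under 0.05 in edgeR, and DESeq2 called 1 higher, Mbp. The median log2 fold change of the members was −1.76, against −0.01 over all genes. Tspan2 fell by 2.78 on the log2 scale (SE 0.282, adjusted p = 3.76e-06), Ermn by 2.43 (SE 0.386, adjusted p = 0.000595), Mal by 2.13 (SE 0.292, adjusted p = 8.51e-05), Mog by 2.05 (SE 0.330, adjusted p = 0.000414) and Ugt8a by 1.76 (SE 0.259, adjusted p = 0.000162). For these 5 every TRAP library lay below every WCH library, as for 22.5% of all genes.

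The other 4 members, Mbp and Mobp among them, did not pass the test in TRAP. Mbp had a log2 fold change of 2.37 (SE 1.05, adjusted p = 0.147), with 2 of 3 TRAP libraries above WCH and replicate 2 below. Without that library it was called, at 2.95 (adjusted p = 0.00126), and without replicate 3 it was 0.63. It was also called without the filter on low counts (2.37, adjusted p = 2.80e-08). Its fold change hardly differed in that fit. Its TRAP libraries spread over a 38.9-fold range and overlapped with WCH, which so small a p does not reflect. Mobp stood at −0.43 (SE 0.759, adjusted p = 0.735), Mag at −0.37 (SE 0.319, adjusted p = 0.430) and Cnp at −0.12 (SE 0.332, adjusted p = 0.831). None of these 3 had groups that did not overlap, and all 3 had a value of the other sign without TRAP replicate 2 (0.07, 0.01 and 0.30).

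Myelin genes outside the set and the markers of other glia were tested in the same fit. Of 13 other myelin structural genes, 6 fell in TRAP (median −0.98), led by the connexin Gjc3 (−2.37) and the myelin protein Opalin (−2.18). Of 12 other enzymes and transport proteins of oligodendrocytes, 3 fell, among them Fa2h, a fatty acid hydroxylase of myelin lipids, at −1.64. Of 4 nuclear factors of the lineage that passed the filter, 3 fell, with Olig2 at −1.56 and Myrf at −1.36. Astrocyte markers fell in 6 of 10 and microglia markers in 4 of 10, while 7 of 12 neuron markers rose. The summed level of the neuron markers was 10555 to 18437 CPM in TRAP and 10231 to 11183 CPM in WCH, and that of the astrocyte markers 661 to 1410.0 CPM in TRAP and 2264 to 2846 CPM in WCH. The row for green fluorescent protein rose by 2.45 (SE 0.329, adjusted p = 7.24e-05). TRAP libraries hold a pull-down of tagged ribosomes. A fall there therefore does not measure the number of oligodendrocytes or fragments in the cortex, or the RNA in each.

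SNF was compared with WCH to see what the gradient band holds before pull-down. All 5 members with membrane proteins rose in SNF and none of the other 4 passed the test, where 20.6% of all genes were called higher and 16.5% lower. The median of the 9 members was 1.34, against −0.25 over all genes. Mag rose most, with a log2 fold change of 2.38 (SE 0.330, adjusted p = 2.05e-05), followed by Ugt8a at 1.50 (SE 0.255, adjusted p = 0.000104), Mog at 1.38 (SE 0.317, adjusted p = 0.00205), Mal at 1.34 (SE 0.284, adjusted p = 0.000836) and Tspan2 at 1.22 (SE 0.266, adjusted p = 0.00114). Every SNF library lay above every WCH library for 6 of the 9, the 5 called members and Mbp, as for 25.6% of all genes.

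Mbp had a log2 fold change of 1.93 in this comparison (SE 1.03, adjusted p = 0.176), larger than that of 4 called members. Its SE comes from all 12 libraries, among them the TRAP libraries with their 38.9-fold range. In a fit of the SNF and WCH libraries alone Mbp was called, at 2.05 (adjusted p = 2.27e-08), as it was in the 12-library fit without TRAP replicate 2 (2.02, adjusted p = 0.00274) or TRAP replicate 3 (2.02, adjusted p = 0.0324) and by DESeq2 (2.05, adjusted p = 0.0478). Without the filter on low counts it was called at 1.89 (adjusted p = 4.49e-06). Ermn stood at −0.25 (SE 0.367, adjusted p = 0.609), Cnp at 0.30 (SE 0.333, adjusted p = 0.497) and Mobp at −0.06 (SE 0.760, adjusted p = 0.960). The sign of Mobp was positive with other size factors (0.07), and that of Cnp was negative with totals outside the mitochondrial genome (−0.10).

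The rise of the membrane-protein members was shared by glial genes of several kinds and by some neuron markers. Of the 13 other myelin structural genes, 7 rose in SNF (median 1.28), with the highest value for the adhesion protein Cntn2 (1.88). Of the 12 enzymes and transport proteins, 6 rose, led by Apod (2.61), a lipid carrier, and Enpp2 (2.19), which makes lysophosphatidic acid. Among nuclear factors only Myrf rose (1.14), 1 of 4. Astrocyte markers rose in 9 of 10, microglia markers in 10 of 10 and oligodendrocyte precursor markers in 3 of 4. The summed astrocyte level was 13613 to 18784 CPM in SNF and 2264 to 2846 CPM in WCH, and the summed microglia level 315 to 643 CPM in SNF and 80.3 to 98.9 CPM in WCH, with none of these markers at 0. Neuron markers rose in 4 of 12, led by Thy1 (1.71) and Syt1 (1.68), and fell in 2, Snap25 (−0.96) and Gad2 (−0.69). Of 8 endothelial markers, 1 rose. The 4 markers of Schwann cells, which make myelin in peripheral nerves, had a summed level of 3.17 to 10.1 CPM in SNF and 5.09 to 12.6 CPM in WCH. In each of these libraries 2 of the 4 had 0 counts. On average Egr2 made most of the sum, at 5.95 CPM in SNF and 7.60 CPM in WCH. The part of this glial share, and of the mitochondrial share, in the rise of the members was not tested.

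The authors' deposited table of genes enriched in the band lists 6 of the 9 members among 3508 genes. In the authors' deposited table the log2 fold changes are 2.72 for Mag, 1.94 for Mbp (false discovery rate 0.0427), 1.75 for Mog, 1.73 for Mal, 1.59 for Ugt8a and 1.49 for Tspan2. Mobp, Cnp and Ermn are not listed there, and no member is listed in the authors' deposited tables of 109 candidates for local and 275 candidates for somatic translation.

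**Figure D3:**
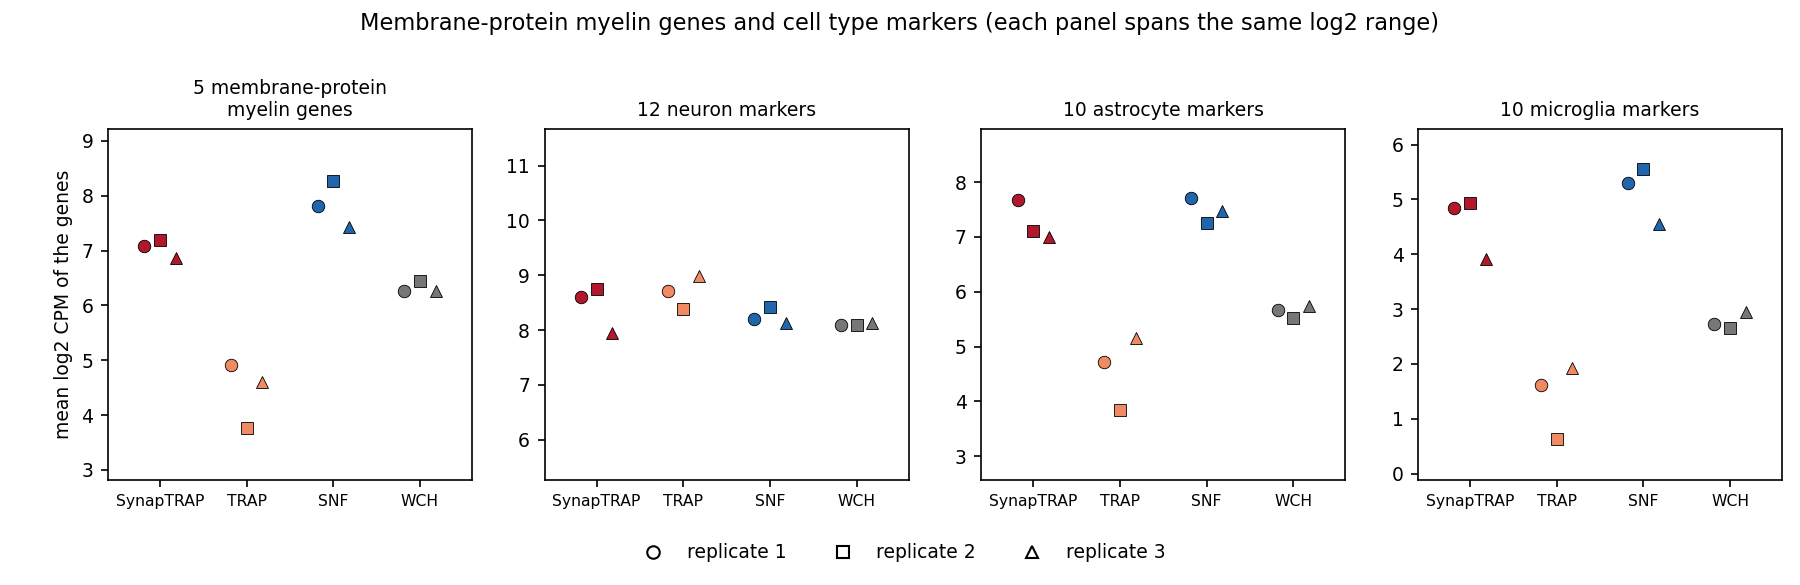
Mean log2 CPM of the 5 membrane-protein genes (Mag, Mog, Mal, Tspan2, Ugt8a) and of neuron, astrocyte and microglia markers in each library, with panels of equal log2 span. The myelin genes and both glial lists are higher in SNF than in WCH and lowest in TRAP, and the neuron markers stay within 7.95 to 8.99.

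SynapTRAP was compared with SNF to see which mRNAs the pull-down keeps from the band. Of the 9 members, 3 fell and 0 rose, where 1.79% of all genes were called lower and 2.29% higher. With the replicate number as a block, since same-numbered libraries deviated together in this comparison, the same 3 members were called, and the count of all genes called lower was 393 in place of 240. Tspan2 fell by 1.11 on the log2 scale (SE 0.265, adjusted p = 0.0213), Mal by 1.09 (SE 0.282, adjusted p = 0.0314) and Ugt8a by 0.92 (SE 0.252, adjusted p = 0.0410). Every SynapTRAP library lay below every SNF library for these 3, as for 1341 of all 13404 genes. Their calls were near the threshold. Leaving out 1 library at a time, Tspan2 was called in 8 of 12 fits, Mal in 7 and Ugt8a in 5, none of the 3 without SNF replicate 1, SNF replicate 2 or SynapTRAP replicate 1, and 1 of the 3 without SNF replicate 3, SynapTRAP replicate 3 or WCH replicate 2.

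Mbp, Mobp and Cnp differed in the other direction without passing the test. Mbp had a log2 fold change of 2.34 (SE 1.05, adjusted p = 0.267), Mobp of 1.13 (SE 0.769, adjusted p = 0.480) and Cnp of 0.90 (SE 0.335, adjusted p = 0.136). For each of the 3, every SynapTRAP library lay above the highest SNF library, as for 12.4% of all genes, though for Mobp SynapTRAP replicate 2 and SNF replicate 3 were nearly level. At an unadjusted p under 0.05, 1 member was higher in edgeR, Cnp, and DESeq2 called 0. Mbp was called without TRAP replicate 2 (2.24, adjusted p = 0.0124) and in a fit of the SynapTRAP and SNF libraries alone (2.29, adjusted p = 0.0188). Without the filter on low counts all 3 were called, at nearly the same fold changes. Mbp was then at 2.36 (adjusted p = 3.05e-07) and Mobp at 1.14 (adjusted p = 0.00232). Mog stood at −0.86 (SE 0.314, adjusted p = 0.129), did not pass with the replicate block either, and was lower in SynapTRAP in each same-numbered pair, with log2 differences of −0.43, −1.24 and −0.84. It was called without the filter on low counts (−0.84, adjusted p = 0.0246). Mag stood at −0.10 (SE 0.312, adjusted p = 0.906) and Ermn at −0.03 (SE 0.369, adjusted p = 0.977). The members' median was −0.10, against 0.03 over all genes. Mbp, Mobp and Cnp lay above the median of all genes, and Ermn and the 5 membrane-protein members below it.

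Outside the set, few oligodendrocyte genes changed between SynapTRAP and SNF. None of the 13 other myelin structural genes was called by edgeR (median −0.24), though 4 were lower at an unadjusted p under 0.05 and DESeq2 called 3 of them lower. None of the 12 enzymes and transport proteins was called by edgeR either (median −0.07), with 3 higher and 1 lower at an unadjusted p under 0.05 and 1 called higher by DESeq2. Of 5 genes of newly formed oligodendrocytes, Enpp6, a choline phosphodiesterase, fell by 1.06. Of 10 microglia markers, P2ry12 fell by 1.23. None of 10 astrocyte markers was called by edgeR, with 4 lower and 2 higher at an unadjusted p under 0.05 and 2 called lower by DESeq2. The tag itself, the green fluorescent protein row, was higher in SynapTRAP, by 1.48 on the log2 scale (SE 0.389, adjusted p = 0.0336).

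SynapTRAP was compared with TRAP to see how tagged ribosomes of the band differ from those of whole cortex. All 7 members other than Mbp and Mobp rose in SynapTRAP, where 21.6% of all genes were called higher and 18.1% lower. The members' median was 2.35, against −0.02 over all genes. On the log2 scale Tspan2 rose by 2.88 (SE 0.283, adjusted p = 2.96e-07), Mag by 2.66 (SE 0.333, adjusted p = 6.73e-06), Mog by 2.57 (SE 0.335, adjusted p = 9.43e-06), Mal by 2.38 (SE 0.294, adjusted p = 3.40e-06) and Ugt8a by 2.35 (SE 0.264, adjusted p = 1.23e-06). Ermn rose by 2.15 (SE 0.385, adjusted p = 0.000365) and Cnp by 1.32 (SE 0.337, adjusted p = 0.00432). All 7 had every SynapTRAP library above every TRAP library, as for 21.4% of all genes.

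Mbp, at 1.90 (SE 1.03, adjusted p = 0.181), and Mobp, at 1.50 (SE 0.773, adjusted p = 0.159), did not pass the test, and their groups overlapped through TRAP replicate 3. Without that library both were called, Mbp at 3.63 (adjusted p = 0.00543) and Mobp at 2.69 (adjusted p = 0.00259). Without the filter on low counts both were called as well, Mbp at 1.88 (adjusted p = 5.34e-06) and Mobp at 1.47 (adjusted p = 1.75e-06). The fold changes hardly differed from those with the filter, and such small p-values do not reflect the overlap of the libraries. The other oligodendrocyte lists moved with the 7: 9 of 13 other myelin structural genes, 10 of 12 enzymes and transport proteins, 4 of 4 nuclear factors and 4 of 5 genes of newly formed oligodendrocytes rose. Apod rose by 3.21. The test was also passed upwards by 10 of 10 astrocyte and 10 of 10 microglia markers. The summed astrocyte level was 9061 to 15786 CPM in SynapTRAP and 661 to 1410.0 CPM in TRAP, and the summed microglia level 194 to 421 CPM in SynapTRAP and 24.6 to 52.2 CPM in TRAP. Of 12 neuron markers, 2 rose, Camk2a by 1.18 and Syt1 by 0.97, and 4 fell, with the lowest values for Snap25, whose promoter drives the tag (−1.58, SE 0.282, adjusted p = 0.000171), and Nefm (−1.20). The tag's own row fell by 1.85. The part of these glial RNAs in the rise of the members was not tested.

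**Figure D4:**
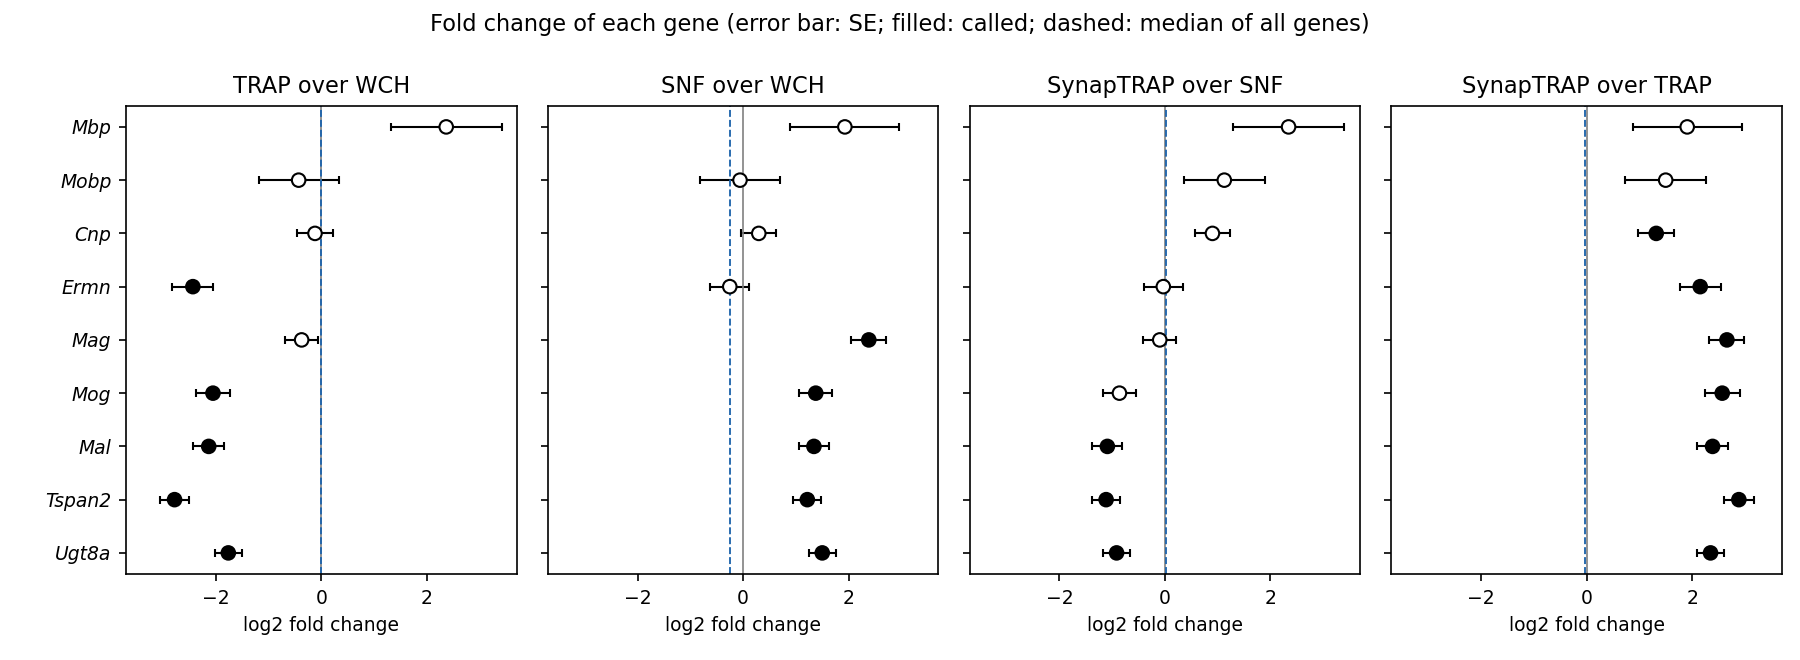
Log2 fold change of each gene with its SE in the 4 comparisons of groups (filled: adjusted p under 0.05; dashed line: median of all 13404 genes). Mag, Mog, Mal, Tspan2 and Ugt8a are filled and above 1.2 for SNF over WCH, and Mbp has the widest error bars, with an SE of 1.03 to 1.05.

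The effect of the pull-down in the band was set against its effect in the homogenate (SynapTRAP minus SNF, less TRAP minus WCH). The difference was called for Tspan2, at 1.67 (SE 0.375, adjusted p = 0.0356), and Ermn, at 2.40 (SE 0.529, adjusted p = 0.0414), where 0.507% of all genes were called higher and 0.358% lower. Tspan2 stood at −1.11 in SynapTRAP against SNF and at −2.78 in TRAP against WCH, and Ermn at −0.03 and −2.43. Leaving out 1 library at a time, Ermn was called in 4 of 12 fits and Tspan2 in 3. Neither was called without TRAP replicate 2, or without any single SNF or WCH library. Without SNF replicate 1 or WCH replicate 2, 0 of all genes were called in either direction. For Mbp the difference was −0.02 (SE 1.41, adjusted p = 0.994), and for Mobp 1.55 (SE 1.08, adjusted p = 0.50), called without the filter on low counts (1.57, adjusted p = 0.00662). The remaining 5 members ranged from 0.27 for Mag to 1.19 for Mog (1.21 and called without that filter, adjusted p = 0.0326), against a median of 0.07 over all genes. Among the genes of the other lists, the nuclear factor Olig2 (1.96) and the RNA-binding protein Qk (2.13) were called, beside 68 of all genes called higher and 48 lower.

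Of 7 genes of factors known to carry or translate Mbp mRNA, 3 rose in SynapTRAP against TRAP and 0 fell, beside 21.6% and 18.1% of all genes called higher and lower. Qk, which encodes the quaking proteins that bind Mbp mRNA, fell in TRAP against WCH by 2.21 (SE 0.317, adjusted p = 0.000137) and rose in SynapTRAP against TRAP by 3.13 (SE 0.328, adjusted p = 6.00e-07). The kinase gene Fyn rose there by 0.86 (SE 0.291, adjusted p = 0.0226) and the kinesin gene Kif1b by 0.77 (SE 0.224, adjusted p = 0.00950). In SNF against WCH, Qk (1.01) and Kif1b (0.93) rose, and Hnrnpk, another RNA-binding protein of Mbp granules, fell by 0.70. Of all genes, 20.6% were called higher and 16.5% lower in that comparison. The role of Kif1b in placing Mbp mRNA is known from zebrafish. None of the 7 was called in SynapTRAP against SNF by edgeR or DESeq2, and 1 was higher at an unadjusted p under 0.05 in edgeR. Hnrnpa2b1, the gene of hnRNP A2, stood at −0.22 in TRAP against WCH, at −0.36 in SNF against WCH, and in SynapTRAP at 0.30 against SNF and 0.16 against TRAP, none of them called. Car2, Padi2 and Sh3gl3 are 3 other genes whose mRNAs are reported outside the cell body of oligodendrocytes. Of them, 1 fell in TRAP against WCH (10.9% of all genes), 1 rose in SNF against WCH (20.6%) and 2 rose in SynapTRAP against TRAP (21.6%).

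Over the 12 libraries, the members formed a tight group and a loose one. Pearson correlations of log2 CPM among the 5 membrane-protein members were 0.79 to 0.99 (median 0.95, 10 pairs). Those of Mbp and Mobp with these 5 were 0.25 to 0.67 (median 0.44, 10 pairs), and Mbp with Mobp reached 0.78. Cnp correlated more with Mbp (0.84) and Mobp (0.80) than with any membrane-protein member (0.49 to 0.77), and Ermn most with Tspan2 (0.88). The 12 libraries form 4 groups and share their scaling, so these values carry the differences between groups and are descriptions, with no test.

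Among all genes that passed the filter, the profile most like the mean of Mbp and Mobp was that of Bcas1 (r = 0.97, 12 libraries), a gene of early myelinating oligodendrocytes, followed by Specc1, the myosin gene Myo6 (both 0.96), the RNA-binding protein Celf4 and Sh3pxd2a (both 0.95). Bcas1 had 273, 240.1 and 837 CPM in SynapTRAP, 52.4, 10.1 and 140.2 CPM in TRAP, 107, 83.5 and 135 CPM in SNF and 34.8, 31.4 and 27.9 CPM in WCH. Myo6 had 265, 198 and 369 CPM in SynapTRAP, 61.2, 6.07 and 123 CPM in TRAP, 109.9, 61.7 and 109.0 CPM in SNF and 30.3, 30.6 and 27.1 CPM in WCH. In both genes SynapTRAP replicate 3 was the highest library, as for Mbp and Mobp, and TRAP replicate 2 the lowest, as for all 9 members. Both genes were chosen by correlation over these same libraries, so such likeness is largely built into the choice. Of these 2, only Bcas1 was called, in SynapTRAP against TRAP (2.73, SE 0.851, adjusted p = 0.0320).

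Among the 5 genes most like the mean of the other 7 members were the microglial receptor P2ry12, Cd33, Evi2a and Colec12 (all r = 0.98, 12 libraries). P2ry12 had 23.4 to 35.5 CPM in SynapTRAP, 1.36 to 3.81 CPM in TRAP, 49.6 to 78.6 CPM in SNF and 14.0 to 20.4 CPM in WCH. The 4 groups did not overlap in P2ry12. As for Mal and Tspan2, its SNF libraries were the highest and its TRAP libraries the lowest, a likeness that its choice by correlation largely builds in.

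**Figure D5:**
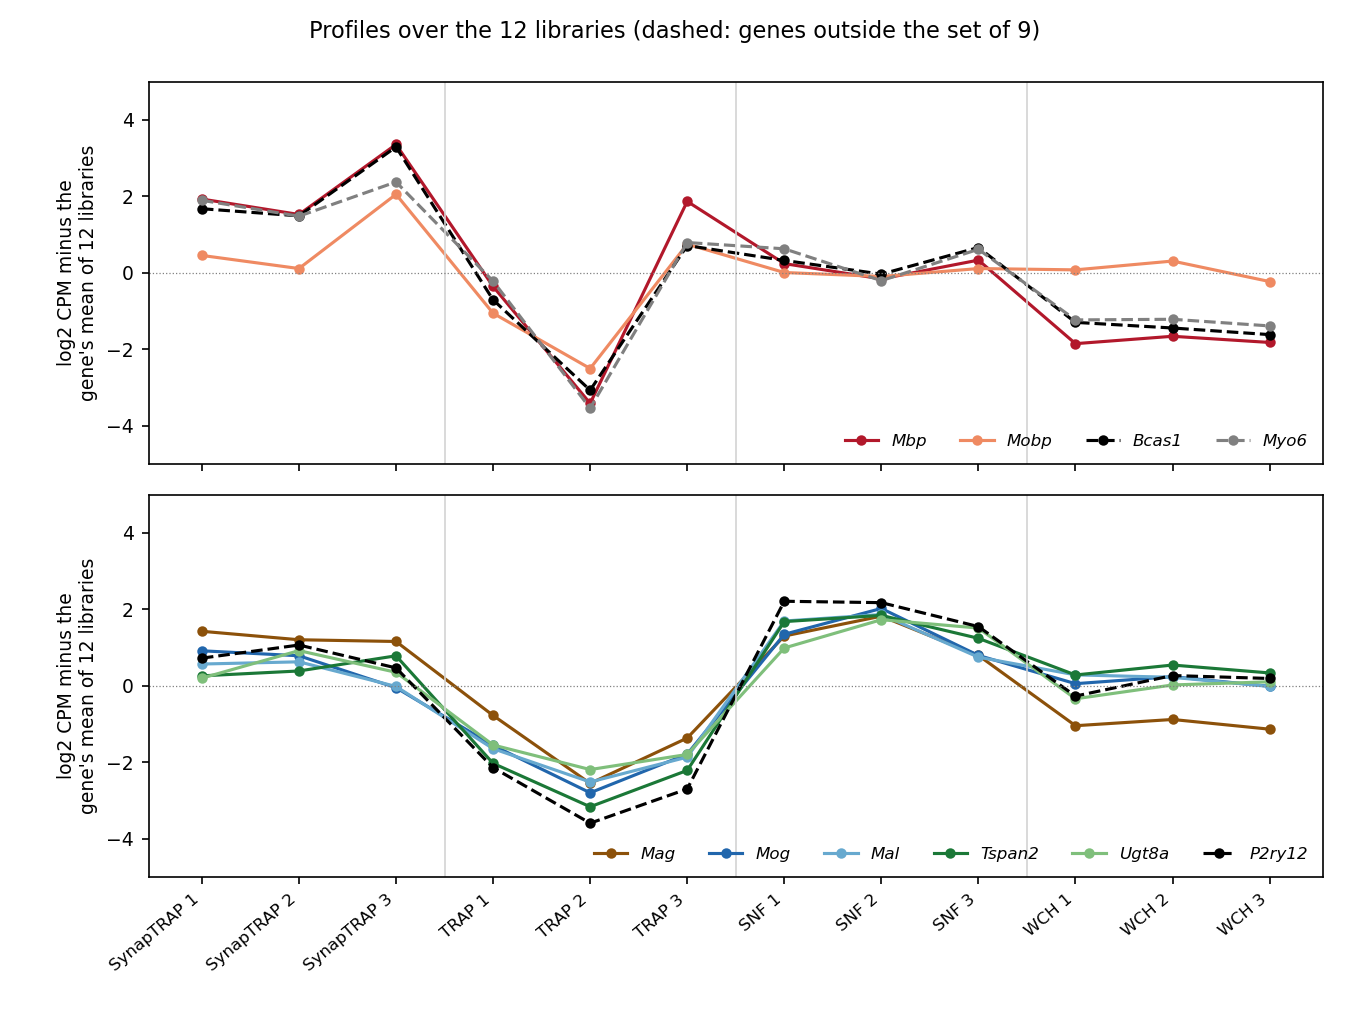
Log2 CPM of single genes minus the gene's mean of all 12 libraries, with Mbp, Mobp, Bcas1 and Myo6 in the upper panel and the 5 membrane-protein genes and P2ry12 in the lower panel. TRAP replicate 2 is the lowest library for every gene in both panels, while SynapTRAP replicate 3 is the highest for the 4 upper genes and SNF replicate 2 for the 5 membrane-protein genes.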

How the data were processed

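The labels name a kit of Nugen for making cDNA. The tools in the submitters' processing notes are Bowtie2, STAR, HTSeq and edgeR, and no version, setting, genome build or annotation was given in the sources used here. The authors deposited integer counts for 29879 genes in each of 12 libraries, followed by 5 summary lines that held 19.3% to 58.3% of a library's reads and were left out. Per the file headers, 3 further tables deposited by them hold, for chosen genes, log2 fold changes, log2 CPM, a likelihood-ratio score, p-values and false discovery rates, which are only quoted. Gene symbols of 28758 identifiers came from GENCODE M21.

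A model of group means over all 12 libraries was fitted in edgeR 4.0.16 under R 4.3.3, with the default expression filter, TMM scaling and the robust quasi-likelihood test. Every adjusted p without another name comes from that fit, over 13404 genes, for 5 contrasts. The test was tried on simulated data first. Levels are CPM, with a prior count of 0.5 on the log2 scale. Sequence letters came from GENCODE M21 transcripts.

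All 9 members are named in every comparison. From other lists, counts are given with at most the 2 highest and 2 lowest called genes, and 5 genes outside the set were chosen for each profile by Pearson correlation, and some of the genes so chosen are not reported here. The 9 members and all lists were chosen with earlier results of these data known. Library scaling, the filter, DESeq2 1.42.0, fits of only the compared groups, a replicate block and leaving out each library were tried as alternatives. Deviations of same-numbered libraries from their group means correlated at 0.20, 0.25 and 0.34 in SynapTRAP and SNF, so the numbers were taken to pair these libraries, by this check alone and not by the labels. In the other comparisons not every correlation exceeded 0.1, a threshold that was a choice. Same-numbered values were 0.098, 0.15 and 0.13 in SynapTRAP and TRAP, where all values between different numbers were negative. They were 0.15, 0.088 and 0.063 in SNF and WCH, and 0.046, 0.069 and 0.0025 in TRAP and WCH. Deviations from a group mean cancel within the group, so positive same-numbered values make the others negative on balance. Negative values between different numbers are therefore not separate evidence of pairing. The check thus does not decide whether the numbers pair these libraries too. Replicates of a group differed beyond counting error, with chi-square values of 10.8 to 333 per gene.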

Additional observations from a re-analysis of the deposited data

Results flagged for a closer look

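The effect of the pull-down differed between the band and the homogenate for 2 members by an edgeR test of the difference itself. For Tspan2 the difference was 1.67 on the log2 scale (adjusted p = 0.0356), and it passed the threshold in 3 of 12 fits that each left out 1 library. For Ermn it was 2.40 (adjusted p = 0.0414), called in 4 of 12 such fits. Ermn rests on few counts, 49 to 831 per library.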

How the results depend on the processing

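With total gene counts in place of TMM scaling, mitochondrial RNA enters the scaling, and the median of all genes moved to 0.56 in TRAP against WCH, −2.60 in SNF against WCH, 1.98 in SynapTRAP against SNF, −1.0 in SynapTRAP against TRAP and 1.46 for the difference of pull-down effects. Members called were then 1 higher in TRAP (21.4% of all genes), and 0 higher and 7 lower in SNF (0.0821% and 85.3% of all genes). They were 9 higher and 0 lower in SynapTRAP against SNF (90.8% and 0.0448%), and 8 higher for the difference of effects (47.2%). Signs turned for Mag (0.16) and Cnp (0.37) in TRAP against WCH. In SNF against WCH they turned for Mbp (−0.44), Mog (−0.96), Mal (−1.03), Cnp (−2.10), Tspan2 (−1.14) and Ugt8a (−0.80). In SynapTRAP against SNF they turned for Mag (1.87), Mog (1.18), Mal (0.96), Tspan2 (0.80), Ermn (1.76) and Ugt8a (1.08), and for the difference of effects for Mbp (1.33). Relative to the shifted medians, the membrane-protein members kept their side in SNF and SynapTRAP against SNF. With totals outside the mitochondrial genome, the signs of Cnp in SNF (−0.10) and of Mbp in the difference (0.26) turned.

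With RLE size factors, Mobp in SNF was 0.0699 and 1 member was called for the difference of effects. RLE called 2966 genes higher and 1415 lower in SNF against WCH (2757 and 2209 with TMM), 185 and 366 in SynapTRAP against SNF (307 and 240), and 38 and 75 for the difference (68 and 48). It moved the median of all genes to −0.12 in SNF against WCH and −0.08 in SynapTRAP against SNF. Totals outside the mitochondrial genome gave 951 and 1737 in TRAP against WCH (1488 and 1459), 2055 and 4855 in SNF against WCH, and 2046 and 3612 in SynapTRAP against TRAP (2899 and 2432). Total gene counts gave 2862 and 232, 11 and 11438, 12169 and 6, 596 and 6399, and 6328 and 0 in the order of comparisons above. Without the filter, 1 member was higher in TRAP (Mbp), 6 in SNF (Mbp added), 3 in SynapTRAP against SNF (Mbp, Mobp and Cnp, with 4 lower, Mog added), 9 in SynapTRAP against TRAP (Mbp and Mobp added) and 4 for the difference (Mobp and Mog added), with 547 and 340 genes called in SynapTRAP against SNF and 310 and 202 for the difference. DESeq2 called 1 member higher in TRAP (Mbp, 2.39, adjusted p = 0.0258), Mobp in SNF was 0.070, and 558 genes were lower in SynapTRAP against SNF, with 148 higher and 326 lower for the difference. In fits of only the compared groups, Mobp in SNF was 0.0658, and in SynapTRAP against SNF 1 member was higher, 1 was lower, and 140 and 121 genes were called. Only 1458 genes were lower in SynapTRAP against TRAP in such a fit. For the members added without the filter, fold changes stayed close to those of the main fit, so mainly the p moved. The cause of these changes was not tested.

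The replicate block changed no call of a member and turned only Mbp in the difference of effects (0.48). It called 441 genes higher and 393 lower in SynapTRAP against SNF and 217 and 149 for the difference.

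The log2 ratio of Mbp and Mobp to the other 7 was 2.71 in SynapTRAP, 2.0 in TRAP, 0.24 in SNF and −0.19 in WCH from summed CPM. With Mbp alone it was 5.90, 5.38, 3.30 and 2.48 in these groups, and with Mobp alone 1.57, 2.15, 0.24 and 1.37. A prior count of 5 moved it by less than the spread between libraries.

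Leaving out each library in turn, the members called were 0 to 1 higher and 5 lower in TRAP against WCH, and 5 to 6 higher in SNF against WCH. They were 0 to 1 higher and 0 to 3 lower in SynapTRAP against SNF, 7 to 9 higher in SynapTRAP against TRAP and 0 to 2 higher for the difference. Among member fold changes whose sign turned, the ranges were −1.63 to 0.0725 for Mobp, −0.80 to 0.0144 for Mag and −0.44 to 0.297 for Cnp in TRAP against WCH, −0.19 to 0.0723 for Mobp in SNF against WCH, −0.314 to 0.202 for Mag and −0.626 to 0.16 for Ermn in SynapTRAP against SNF, and −0.780 to 1.61 for Mbp and −0.222 to 0.594 for Mag in the difference. All genes called in SynapTRAP against SNF were then 19 to 499 higher and 20 to 453 lower. The ratio was 3.19 to 4.14 in SynapTRAP, 2.86 to 4.47 in TRAP, 1.55 to 2.02 in SNF and 1.90 to 1.94 in WCH.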
